A study of Mus musculus with 12 samples.

Results

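The genes described here are 10 neuronal RNA-binding protein genes, the 3 Rbfox genes, the 3 neuronal Elavl genes, Nova1 and Nova2, Celf4 and Ptbp2. They were chosen by symbol, each through its Ensembl identifier, and are 10 of the 48709 genes counted in each library. All 10 were found and all 10 passed the filter on low counts. RNA-seq counts came from embryonic cortex of C57BL/6J mice at E15.5 (embryonic day), with 4 libraries from control, 4 from a BAF155 conditional knockout (cKO) and 4 labelled Pax6 cKO. The study set control against each cKO. BAF155, the protein of Smarcc1, is part of the core of the BAF complex, which moves nucleosomes, and Pax6 encodes a transcription factor of cortical radial glia, the neural stem cells. The labels name neither the Cre line nor the floxed alleles, and do not say what the controls carry. They also do not say whether the libraries of a group are separate embryos. Every p-value therefore rests on the spread among libraries, part of which may be technical, and within a cKO group possibly all. The controls held both sexes by the check below, so they were not all from the same embryo.

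RNA-binding proteins of these families decide which exons a neuron keeps and how long its messages last. RBFOX, NOVA and PTBP2 proteins are mainly known as splicing regulators, whose position on the pre-mRNA sets whether a nearby exon is included or skipped. ELAVL2, ELAVL3 and ELAVL4, also called HuB, HuC and HuD, bind AU-rich and U-rich stretches, chiefly in 3′ untranslated regions, and stabilise or help translate those messages. In the developing cortex, PTBP1 of progenitors gives way to its paralog PTBP2 in new neurons, and the other families come up as neurons mature.

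Each library held 15.2 to 32.05 M counted reads, and 16511 genes were tested. Smarcc1 was at 303 ± 68.6 CPM in control (counts per M of scaled library size, mean ± SD, n = 4), 127 ± 10.8 in the BAF155 cKO and 186 ± 6.71 in libraries labelled Pax6 cKO. Pax6 went against its label. It was at 110.1 ± 19.1 CPM in control, 314 ± 40.3 in the BAF155 cKO and 388 ± 8.75 in libraries labelled Pax6 cKO, all 4 of which were above every control. Counts over a whole gene can hold reads from outside a deleted part, so every direction below is that of the libraries labelled Pax6 cKO. By Xist and 4 Y-linked genes, control replicates 1 and 2 and all libraries labelled Pax6 cKO were male, and control replicates 3 and 4 and all BAF155 cKO libraries were female. All controls were run in sequencing lane 8, which held no cKO library, so lane and group cannot be told apart in either comparison with control. Libraries of a group were not equally alike. The chi-square per gene between the counts of a pair was 5.94 for control replicates 3 and 4 but 23.6 to 42.4 between either of them and replicate 1 or 2, and the mitochondrial share of reads was 1.21% and 1.38% in the first pair and 2.27% and 2.18% in the second. In the BAF155 cKO it was 14.5 for replicates 1 and 4, 10.7 for replicates 2 and 3, and 20.8 to 50.2 across, with mitochondrial shares of 2.92% and 3.27% in the first pair and 1.57% and 2.09% in the second. Their part in the results below was not tested beyond leaving out libraries.

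Markers of the sampled tissue were present in every library, and several cell type lists moved with the groups. The cortical identity list (6 genes) summed to 1989 to 2730 CPM in control and 1257 to 1895 CPM in the BAF155 cKO, where 4 of 6 were lower. In libraries labelled Pax6 cKO it summed to 1393 to 1542 CPM, and 5 of 6 were lower. Summed markers of upper-layer neurons (5 genes) were at 940 to 1121 CPM in control, 441 to 580 in the BAF155 cKO and 467 to 476 in libraries labelled Pax6 cKO, with 5 of 5 lower in each. Markers of intermediate progenitors (4 genes) were at 339 to 557, 148 to 227 and 117 to 124 CPM, with 3 and 4 of 4 lower. Deep-layer markers (5 genes) were at 757 to 1277, 663 to 896 and 626 to 682 CPM, with 2 and 3 lower and, in libraries labelled Pax6 cKO, 1 higher. Those of radial glia (7 genes) were at 2146 to 2277, 1679 to 1897 and 1937 to 2121 CPM, with 4 and 5 lower and, in libraries labelled Pax6 cKO, 1 higher. Markers of GABAergic neurons (7 genes) were at 530 to 766, 1028 to 1204 and 1251 to 1361 CPM, with 5 and 6 of 7 higher. Those of Cajal-Retzius cells (5 genes) were at 368 to 520, 559 to 584 and 681 to 723 CPM, with 4 and 5 of 5 higher. Outside the cortex, 3 liver genes summed to at most 0.776 CPM in control and libraries labelled Pax6 cKO, but to 1.32, 2.85, 28.8 and 171.5 CPM in BAF155 cKO replicates 1 to 4. The hypothalamus markers Sim1 and Otp summed to 0.0473 to 0.0991 CPM in control, 1.59 to 5.24 in the BAF155 cKO (2 of 2 higher) and 0.284 to 1.13 in libraries labelled Pax6 cKO (1 higher). Thalamus markers (3 genes) were at 22.1 to 44.5, 42.5 to 61.4 and 26.8 to 31.5 CPM, with 1 higher and 1 lower in the BAF155 cKO and 1 lower in libraries labelled Pax6 cKO. Erythroid markers (3 genes) were at 93.0 to 117, 114 to 210 and 141 to 155 CPM, with 1 higher in each. No marker of these lists was at 0 in all libraries. Lower and higher here are calls as defined below. They marked 7.56% of all tested genes as lower and 6.04% as higher in the BAF155 cKO. In libraries labelled Pax6 cKO the shares were 18.9% and 16.6%. The part of this changed mix in the results below was not tested. In bulk tissue, fewer cells of a type and less RNA per cell cannot be told apart.

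The 10 genes differed widely in level. Elavl3 had the highest control mean per length, 102 ± 13.2 CPM per kb of exons (n = 4), followed by Rbfox2 at 88.8 ± 7.14. The SDs of these 2 means overlapped. Ptbp2 (54.2 ± 5.27 CPM per kb), Elavl4 (49.4 ± 7.76), Elavl2 (39.0 ± 4.78) and Rbfox1 (36.4 ± 3.52) followed, and no neighbours among these 4 were separated by their SDs. Celf4 (24.9 ± 3.12), the pair Rbfox3 (13.2 ± 1.88) and Nova2 (11.5 ± 1.55), which were not separated, and Nova1 (5.78 ± 1.55) came last. Rbfox3, which encodes the neuronal nuclear antigen NeuN, was thus among the low genes of the set at this age. One place in this order changed in both cKOs. Rbfox1 was above Celf4 in control but below it in the BAF155 cKO (21 ± 3.76 against 27 ± 1.85 CPM per kb) and in libraries labelled Pax6 cKO (20.4 ± 0.976 against 27.9 ± 1.88).

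**Figure D1:**
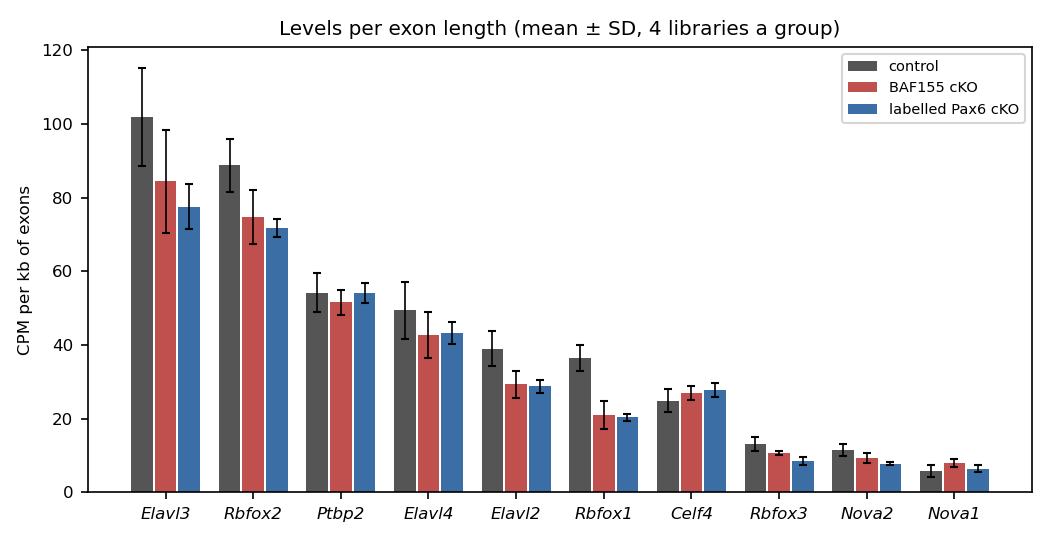
Mean level of each of the 10 genes per kb of exons (CPM per kb, bars are means, error bars SD, n = 4 libraries), in control, the BAF155 cKO and the libraries labelled Pax6 cKO. Elavl3 and Rbfox2 are the highest and Nova1 is the lowest; Rbfox1 is above Celf4 in control and below it in both other groups.

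No gene of the set passed the test as higher in either comparison with control. In the BAF155 cKO, 2 of the 10 were lower (Rbfox1 and Elavl2) and 8 did not pass. A call is an adjusted p below 0.05, Benjamini-Hochberg over all genes, by the quasi-likelihood test of edgeR. The same call marked 13.6% of all tested genes, 7.56% lower and 6.04% higher. In libraries labelled Pax6 cKO, 6 of the 10 were lower (Rbfox1, Rbfox2, Rbfox3, Nova2, Elavl2 and Elavl3) and 4 did not pass. There the call marked 35.5% of all tested genes, 18.9% lower and 16.6% higher. The median log2 fold change over the 10 genes was −0.26 in the BAF155 cKO and −0.35 in libraries labelled Pax6 cKO, against 0.01 and 0.02 over all tested genes, and 8 of the 10 estimates were below 0 in each. All 4 libraries lay below all 4 controls for 2 of the 10 in the BAF155 cKO (Rbfox1 and Rbfox3), as for 7.96% of all tested genes, and for 6 in libraries labelled Pax6 cKO, the same 6 that were called, as for 18.3% of all tested genes. Both comparisons use the same 4 controls. Against control, 1 of the 10 was called in the BAF155 cKO without BAF155 cKO replicate 1 or 4 or without control replicate 3, and 4 without control replicate 1. With controls of the same sex alone, chosen after seeing the data, 7 were called in the BAF155 cKO (female controls, replicates 3 and 4) and 2 in libraries labelled Pax6 cKO (male controls, replicates 1 and 2). Calls over all tested genes moved as well. In the BAF155 cKO they were 2246 with all libraries, 4294 with the female controls and 3234 without control replicate 1. Without BAF155 cKO replicate 1 or 4 or control replicate 3 they were 1324, 1001 and 1164. In libraries labelled Pax6 cKO they were 5866 with all libraries and 1375 with the male controls.

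**Figure D2:**
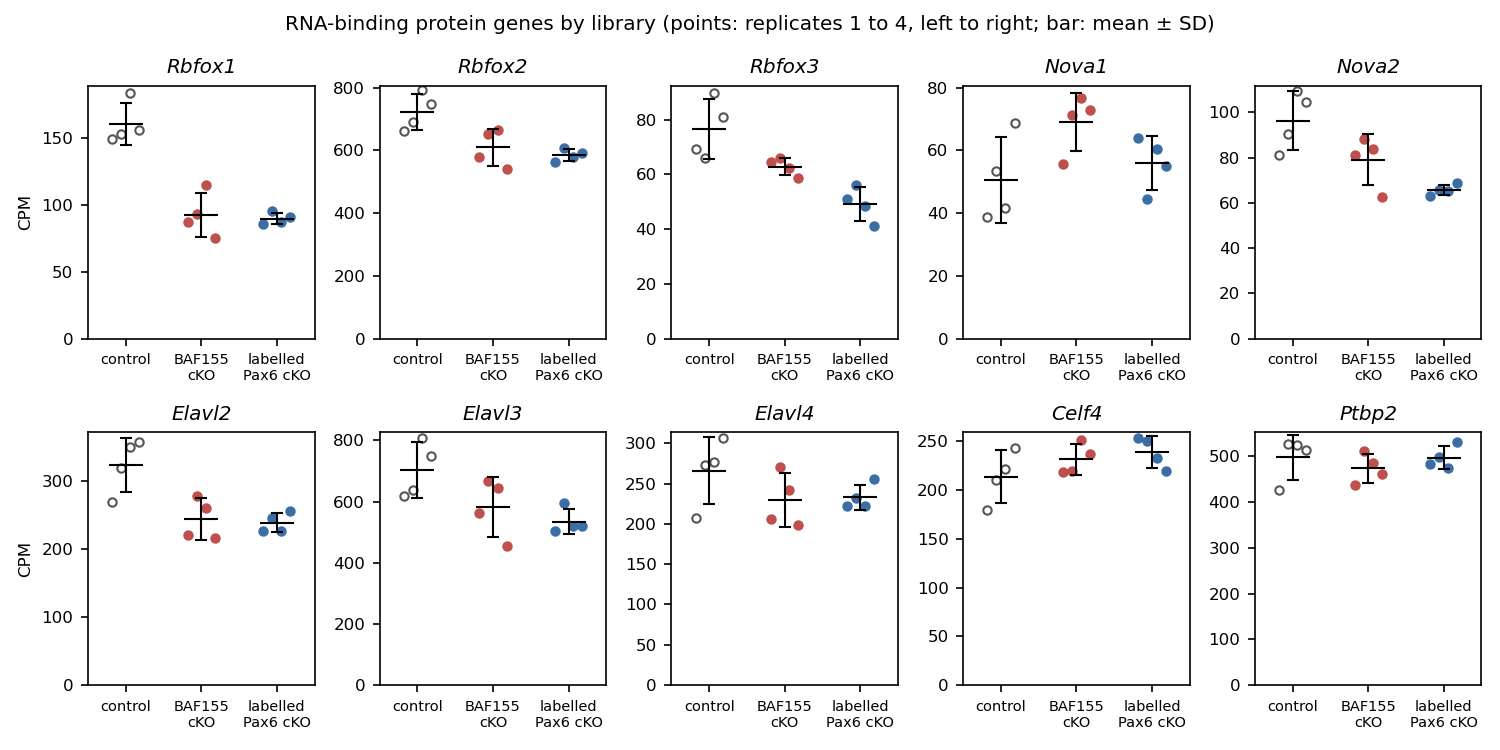
Level of each of the 10 genes in every library (CPM, points are libraries, lines are group means), 1 panel a gene. The groups do not overlap with control for Rbfox1 in either cKO; for Ptbp2 and Elavl4 the libraries of all 3 groups are mixed.

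**Figure D3:**
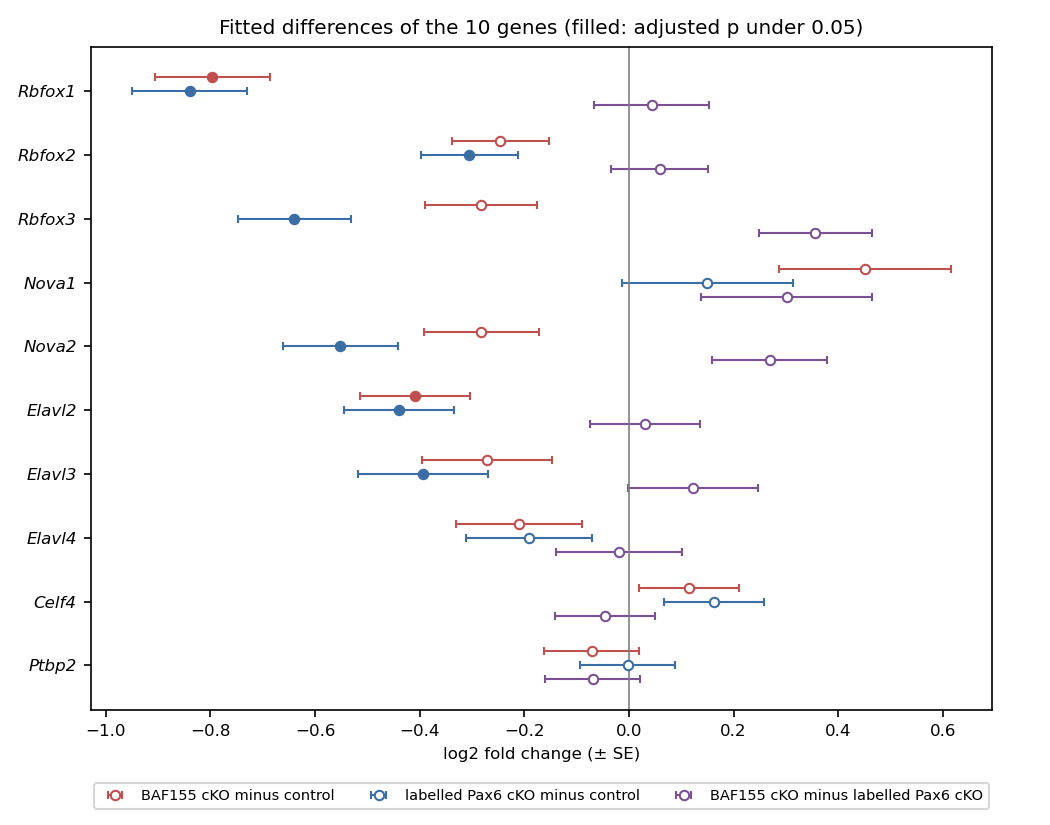
Fitted log2 fold changes of the 10 genes with their standard errors, for both comparisons with control and for the direct contrast; filled points passed the adjusted p threshold of 0.05. Rbfox1 lies farthest to the left in both comparisons with control, and no point of the direct contrast is filled.

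Rbfox1 had the largest change of the set in both cKOs. Its protein, also called A2BP1, acts on exons of many ion channel and synaptic genes. Control replicates 1 to 4 were at 149, 153, 183 and 156 CPM, BAF155 cKO replicates at 87.0, 92.7, 114 and 75 CPM, and replicates labelled Pax6 cKO at 85.3, 95.1, 87.3 and 90.5 CPM. Every cKO library was thus below every control, the nearest pair being 114 and 149 CPM. Rbfox1 fell by 42.4% in the BAF155 cKO (log2 fold change −0.80, SE 0.11, 95% interval −1.03 to −0.56, adjusted p = 0.000245, edgeR). It fell by 44.1% in libraries labelled Pax6 cKO (log2 −0.84, SE 0.11, interval −1.07 to −0.61, adjusted p = 8.77e-05). It passed under all 19 alternative settings in the first comparison and all 17 in the second. With same-sex controls only, its log2 fold changes were −0.89 (adjusted p = 0.000581) and −0.76 (adjusted p = 0.00174). With the BAF155 cKO libraries of lane 1 alone the value was −0.82, and with those of lane 3 alone −0.76.

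Rbfox1 (ENSMUSG00000008658) spans 1526 kb of mm10 chromosome 16, from 5885355 to 7411526 on the plus strand, and RefSeq's promoter table (build GRCm38.p6, the assembly of mm10) gives it a pair of start sites 1185 kb apart. Counts per gene sum the transcripts of both starts, so the fall cannot be placed at either one. Both windows are shown because they are the candidate control regions of the gene that moved most, each from 250 bases before to 30 after the start, written 5′ to 3′ on the plus strand. The Ptbp2 window (chr3:119783359-119783638, minus strand) is shown with them as that of the gene that moved least, and that of Rbfox3 (chr11:118761012-118761291, minus strand) as that of the Rbfox gene with the next largest change. Capitals mark the E-box letters CANNTG, a motif of basic helix-loop-helix factors that reads the same on both strands and includes CAGCTG.
Rbfox1, chr16:5884543-5884822: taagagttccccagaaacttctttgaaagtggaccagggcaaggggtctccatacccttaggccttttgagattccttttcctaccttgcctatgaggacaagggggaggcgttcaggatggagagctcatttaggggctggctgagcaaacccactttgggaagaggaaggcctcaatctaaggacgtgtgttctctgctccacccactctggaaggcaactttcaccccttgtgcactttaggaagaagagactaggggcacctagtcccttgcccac
Rbfox1, chr16:7069585-7069864: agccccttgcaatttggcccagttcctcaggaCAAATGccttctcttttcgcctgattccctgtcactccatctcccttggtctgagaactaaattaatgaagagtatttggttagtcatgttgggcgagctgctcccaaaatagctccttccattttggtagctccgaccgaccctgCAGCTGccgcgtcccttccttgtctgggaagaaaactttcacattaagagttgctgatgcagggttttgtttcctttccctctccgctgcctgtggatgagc
Rbfox3: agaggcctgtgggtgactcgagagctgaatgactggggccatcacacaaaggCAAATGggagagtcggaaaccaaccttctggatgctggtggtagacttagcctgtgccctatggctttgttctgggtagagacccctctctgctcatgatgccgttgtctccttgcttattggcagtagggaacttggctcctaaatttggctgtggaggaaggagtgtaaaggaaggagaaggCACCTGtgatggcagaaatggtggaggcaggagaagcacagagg
Ptbp2: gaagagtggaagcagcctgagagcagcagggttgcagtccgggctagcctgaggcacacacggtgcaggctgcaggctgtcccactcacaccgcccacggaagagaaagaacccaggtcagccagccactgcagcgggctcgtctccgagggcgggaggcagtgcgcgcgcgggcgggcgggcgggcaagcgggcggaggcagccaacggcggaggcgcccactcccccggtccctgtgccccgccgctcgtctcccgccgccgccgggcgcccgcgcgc
The upstream Rbfox1 window and the Ptbp2 window held no CANNTG, and the downstream Rbfox1 window and the Rbfox3 window held 2 each. Of all 32817 windows of this length, 70.1% held at least 1. Promoter entries were matched for 8 of the 10 genes with 17 windows, of which 12 windows in 6 genes held the motif. GC content was 52.5% and 50% in the Rbfox1 windows, 53.2% in that of Rbfox3 and 74.6% in that of Ptbp2, with a median of 52.5% over all windows.

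The estimates of Rbfox2 and Rbfox3 were smaller than that of Rbfox1. Rbfox2 (chromosome 15, 77078990 to 77307004, minus strand), the most abundant of the 3 and the one also made outside neurons, was at 662, 690.3, 792 and 746 CPM in control, 578, 653, 665 and 541 CPM in the BAF155 cKO, and 562, 608, 578 and 592 CPM in libraries labelled Pax6 cKO. The BAF155 cKO overlapped with control by 1 library, and the libraries labelled Pax6 cKO were all below it. The log2 fold change was −0.25 (SE 0.09, interval −0.44 to −0.05, adjusted p = 0.0848) in the BAF155 cKO, which did not pass, and −0.30 (SE 0.09, interval −0.50 to −0.11, adjusted p = 0.0193) in libraries labelled Pax6 cKO, which did. The first passed with DESeq2 (−0.25, adjusted p = 0.0383) and against the female controls alone (−0.35, adjusted p = 0.0305). The second call was lost in 6 of 17 settings. It was −0.11 (adjusted p = 0.236) after correction for GC content and length, −0.21 (adjusted p = 0.246) against the male controls alone, and had adjusted p-values of 0.0543 to 0.0705 without control replicate 3 or 4 or without replicate 1 or 3 labelled Pax6 cKO.

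Rbfox3 (chromosome 11, 118489762 to 118911597, minus strand) was at 69.4, 66.1, 89.9 and 81.1 CPM in control, 64.4, 66.0, 62.5 and 58.6 CPM in the BAF155 cKO, and 50.9, 56.0, 48.6 and 41.2 CPM in libraries labelled Pax6 cKO. Each cKO was wholly below control, the BAF155 cKO only by the gap between 66.0 and 66.1 CPM. Rbfox3 fell by 35.8% in libraries labelled Pax6 cKO (log2 −0.64, SE 0.11, interval −0.87 to −0.41, adjusted p = 0.000664), and the call held under all 17 settings, with −0.47 against the male controls. In the BAF155 cKO the log2 fold change was −0.28 (SE 0.11, interval −0.51 to −0.06, adjusted p = 0.0863), which did not pass. Against the female controls alone it was −0.46 (adjusted p = 0.0106).

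The Nova pair, first known as targets of an autoimmune neurological syndrome, had estimates of opposite sign. Nova2 (chromosome 7, 18925888 to 18965319, plus strand), the more abundant in cortex, was at 81.2, 90.3, 109 and 105 CPM in control, 81.2, 88.4, 83.9 and 62.8 CPM in the BAF155 cKO, and 63.0, 65.8, 65.2 and 68.7 CPM in libraries labelled Pax6 cKO. All libraries labelled Pax6 cKO were below every control, while the BAF155 cKO overlapped with control. Its log2 fold change was −0.55 (SE 0.11, interval −0.78 to −0.32, adjusted p = 0.0021) in libraries labelled Pax6 cKO and −0.28 (SE 0.11, interval −0.52 to −0.05, adjusted p = 0.092) in the BAF155 cKO. The first call was lost only against the male controls alone (log2 −0.39, adjusted p = 0.0585), and the second comparison passed against the female controls alone (log2 −0.45, adjusted p = 0.0138), without control replicate 1 (−0.37, adjusted p = 0.0307) and without BAF155 cKO replicate 2 (−0.34, adjusted p = 0.0424). An antisense gene, Gm26821, overlaps 31.7% of the exon bases of Nova2 and is listed at 0 in all libraries. The library kit does not mark strand, so this 0 does not show whether reads of the shared bases came from Nova2.

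Nova1 (chromosome 12, 46694517 to 46818929, minus strand) was at 38.9, 53.2, 41.5 and 68.6 CPM in control, 55.5, 71.1, 76.7 and 73.0 CPM in the BAF155 cKO, and 64.0, 44.4, 60.3 and 55.1 CPM in libraries labelled Pax6 cKO. Control replicate 4 lay within the range of the BAF155 cKO, so the groups overlapped. Nova1 was the gene of the set with the highest estimate in the BAF155 cKO, 0.45 on the log2 scale (SE 0.16, interval 0.10 to 0.80, adjusted p = 0.0761), which did not pass. Without control replicate 4 the value was 0.63 (adjusted p = 0.0149), and DESeq2 put it just under the threshold (0.45, adjusted p = 0.04997). In libraries labelled Pax6 cKO it was 0.15 (SE 0.16, adjusted p = 0.492).

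Among the neuronal Elavl genes, Elavl2 passed in both comparisons, Elavl3 in 1 and Elavl4 in neither. Elavl2 (chromosome 4, 91250763 to 91400785, minus strand) was at 270.0, 319.9, 350.1 and 358 CPM in control, 221, 279, 261 and 217 CPM in the BAF155 cKO, and 227, 246, 227 and 257 CPM in libraries labelled Pax6 cKO. Only BAF155 cKO replicate 2 reached above the lowest control. It fell by 24.7% in the BAF155 cKO (log2 −0.41, SE 0.11, interval −0.63 to −0.18, adjusted p = 0.021). It fell by 26.3% in libraries labelled Pax6 cKO (log2 −0.44, SE 0.11, interval −0.66 to −0.21, adjusted p = 0.00588). The call in the BAF155 cKO was lost in 6 of 19 settings at adjusted p-values of 0.062 to 0.137, which were the fit of the 8 libraries compared, BAF155 cKO lane 1 alone, and leaving out BAF155 cKO replicate 1 or 4 or control replicate 3 or 4. The call in libraries labelled Pax6 cKO was lost against the male controls alone (log2 −0.30, adjusted p = 0.132).

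Elavl3 (chromosome 9, 22015005 to 22052023, minus strand), the highest of the set per exon length in control and close there to Rbfox2, was at 617, 637, 808 and 748 CPM in control, 562, 667, 645 and 454 CPM in the BAF155 cKO, and 502, 596, 521 and 519 CPM in libraries labelled Pax6 cKO. The BAF155 cKO overlapped with control in 2 libraries, and those labelled Pax6 cKO were all lower. The log2 fold change was −0.27 (SE 0.12, interval −0.54 to −0.01, adjusted p = 0.145; −0.43 and adjusted p = 0.0358 against the female controls alone) in BAF155 cKO libraries and −0.39 (SE 0.12, interval −0.66 to −0.13, adjusted p = 0.0235) in libraries labelled Pax6 cKO. The call was lost in 7 of 17 settings, among them the correction for GC content and length (−0.23, adjusted p = 0.104), the male controls alone (−0.23, adjusted p = 0.323), and the absence of control replicate 3 or 4 or of replicate 1, 3 or 4 labelled Pax6 cKO (adjusted p-values 0.0595 to 0.0848). A same-strand gene model, Gm49318, shares 3.72% of its exon bases.

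Elavl4 (chromosome 4, 110203722 to 110351909, minus strand) was at 208, 273, 277 and 307 CPM in control, 207, 271, 243 and 199 CPM in the BAF155 cKO, and 222, 233, 222 and 255 CPM in libraries labelled Pax6 cKO. Its groups overlapped in both comparisons. The log2 fold changes were −0.21 (SE 0.12, interval −0.47 to 0.05, adjusted p = 0.232) and −0.19 (SE 0.12, interval −0.45 to 0.07, adjusted p = 0.228). It passed only against the female controls in the BAF155 cKO (−0.36, adjusted p = 0.048) and, in libraries labelled Pax6 cKO, without control replicate 1 (−0.32, adjusted p = 0.0333).

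Celf4 and Ptbp2 passed in neither comparison. Celf4 (chromosome 18, 25477632 to 25754157, minus strand), a regulator of message stability and translation in excitatory neurons, was at 179, 211, 222 and 244 CPM in control, 219, 219, 252 and 237 CPM in the BAF155 cKO, and 254, 251, 233 and 219 CPM in libraries labelled Pax6 cKO. The groups overlapped, and Celf4 and Nova1 were the genes of the set with estimates above 0 in both comparisons. The log2 fold changes of Celf4 were 0.12 (SE 0.10, interval −0.09 to 0.32, adjusted p = 0.407) and 0.16 (SE 0.10, interval −0.04 to 0.36, adjusted p = 0.198). The first turned to −0.02 against the female controls alone, and the second passed after correction for GC content and length (0.36, adjusted p = 0.00698).

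Ptbp2 (chromosome 3, 119718742 to 119784466, minus strand), which keeps many late neuronal exons out while neurons are young, was at 425, 526, 524 and 515 CPM in control, 437, 511, 484 and 461 CPM in the BAF155 cKO, and 482, 498, 475 and 531 CPM in libraries labelled Pax6 cKO. The 3 groups shared 1 range, with control replicate 1 the lowest library. The log2 fold change was −0.07 (SE 0.09, interval −0.26 to 0.12, adjusted p = 0.598) in BAF155 cKO libraries and −0.00 (SE 0.09, interval −0.20 to 0.19, adjusted p = 0.987) in libraries labelled Pax6 cKO.

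Compared directly, the BAF155 cKO and the libraries labelled Pax6 cKO gave no call among the 10 genes by edgeR's quasi-likelihood test, which called 4.31% of all tested genes. Of the 10, 2 had an unadjusted p under 0.05 (Rbfox3 and Nova2), for which no share over all tested genes is given here. DESeq2 called 1, Rbfox3, and 1339 genes in all, against 711 by edgeR. Rbfox3 was higher in every BAF155 cKO library than in every library labelled Pax6 cKO, a separation found in the higher direction for 7.47% of tested genes, with a difference of 0.36 on the log2 scale (SE 0.11, interval 0.13 to 0.59, adjusted p = 0.0727). It passed under DESeq2 (0.37, adjusted p = 0.0318), in the fit of the 8 libraries compared (0.37, adjusted p = 0.035) and after correction for GC content and length (0.30, adjusted p = 0.0371). Within lane 1, the only lane that held libraries of both cKOs, the difference was 0.42 (adjusted p = 0.096). For Nova2 it was 0.27 (SE 0.11, interval 0.04 to 0.50, adjusted p = 0.171), and 0.36 (adjusted p = 0.0467) without BAF155 cKO replicate 4. The estimate for Rbfox1 was 0.04 (interval −0.19 to 0.28, adjusted p = 0.861). All libraries of the first group were female and all of the second male, so sex and genotype cannot be told apart here.

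Ratios of 2 counts from the same library do not depend on how libraries are scaled, and they gave the balance of related proteins' messages. The ratio of Ptbp2 to Ptbp1 counts was 4.86, 4.68, 3.77 and 3.88 in control, 4.86, 5.08, 6.27 and 6.59 in the BAF155 cKO, and 6.05, 6.44, 6.27 and 7.73 in libraries labelled Pax6 cKO. Every library of either cKO was above every control, the lowest BAF155 cKO library only by 2.2808 against 2.2802 on the log2 scale. The mean log2 ratio was 0.40 higher in the BAF155 cKO and 0.63 higher in libraries labelled Pax6 cKO. Ptbp1, which holds back neuronal exons in progenitors, was at 118 ± 23.2 CPM in control, 84.4 ± 13.6 in the BAF155 cKO and 75.4 ± 4.72 in libraries labelled Pax6 cKO (n = 4 each), with log2 fold changes of −0.48 (SE 0.13, adjusted p = 0.0305, edgeR) and −0.64 (SE 0.13, adjusted p = 0.00278), while Ptbp2 passed in neither.

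The ratio of Rbfox1 to Rbfox2 was 0.226, 0.222, 0.231 and 0.209 in control, 0.151, 0.142, 0.172 and 0.139 in the BAF155 cKO, and 0.152, 0.157, 0.151 and 0.153 in libraries labelled Pax6 cKO. Neither cKO overlapped with control, and the log2 differences from control were −0.56 and −0.53. Rbfox3 to Rbfox2 was lowest in libraries labelled Pax6 cKO, at a mean ratio of 0.0836 against 0.106 in control and 0.104 in the BAF155 cKO, with no overlap with either. Mean ratios in this paragraph are geometric means, taken from the mean of the log2 ratios. The ratio of Nova1 to Nova2 was 0.479, 0.59, 0.379 and 0.656 in control, 0.683, 0.805, 0.914 and 1.16 in the BAF155 cKO, and 1.02, 0.675, 0.924 and 0.801 in libraries labelled Pax6 cKO. No cKO library was as low as any control, with log2 differences of 0.76 and 0.71. Elavl2 to Elavl4 went from a mean of 1.22 in control to 1.06 and 1.03, and neither cKO overlapped with control. Against Elavl1, the family member made in all tissues, Elavl2 and Elavl3 overlapped between control and each cKO. Elavl4 to Elavl1 was at a mean of 1.93 in control, 2.07 in the BAF155 cKO and 2.34 in libraries labelled Pax6 cKO, which lay above both other groups without overlap (log2 differences 0.28 from control, and −0.18 for the BAF155 cKO minus these libraries). Celf4 to Celf1 lay wholly above control in libraries labelled Pax6 cKO (0.738 against 0.542, log2 difference 0.45) and overlapped with control in the BAF155 cKO (0.638). Rbfox1 to Rbfox3 lay wholly below control in the BAF155 cKO (1.45 against 2.10, log2 difference −0.53) and overlapped with control in libraries labelled Pax6 cKO (1.83). Of the 10 ratios, 5 did not overlap between control and the BAF155 cKO, 7 between control and libraries labelled Pax6 cKO, and 2 between the cKOs. Several of these ratios share a gene, so they are not separate observations. How often ratios of other gene pairs separate was not computed, so these counts have no background to be read against. Each separation of 4 against 4 libraries has an exact 2-sided permutation p of 0.0286, the smallest this design allows, and over the 30 tests of 10 ratios the smallest Benjamini-Hochberg adjusted value was 0.0612, so none passed. From that smallest p no ratio could pass on its own, however large its difference, so this is a limit of the test.

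**Figure D4:**
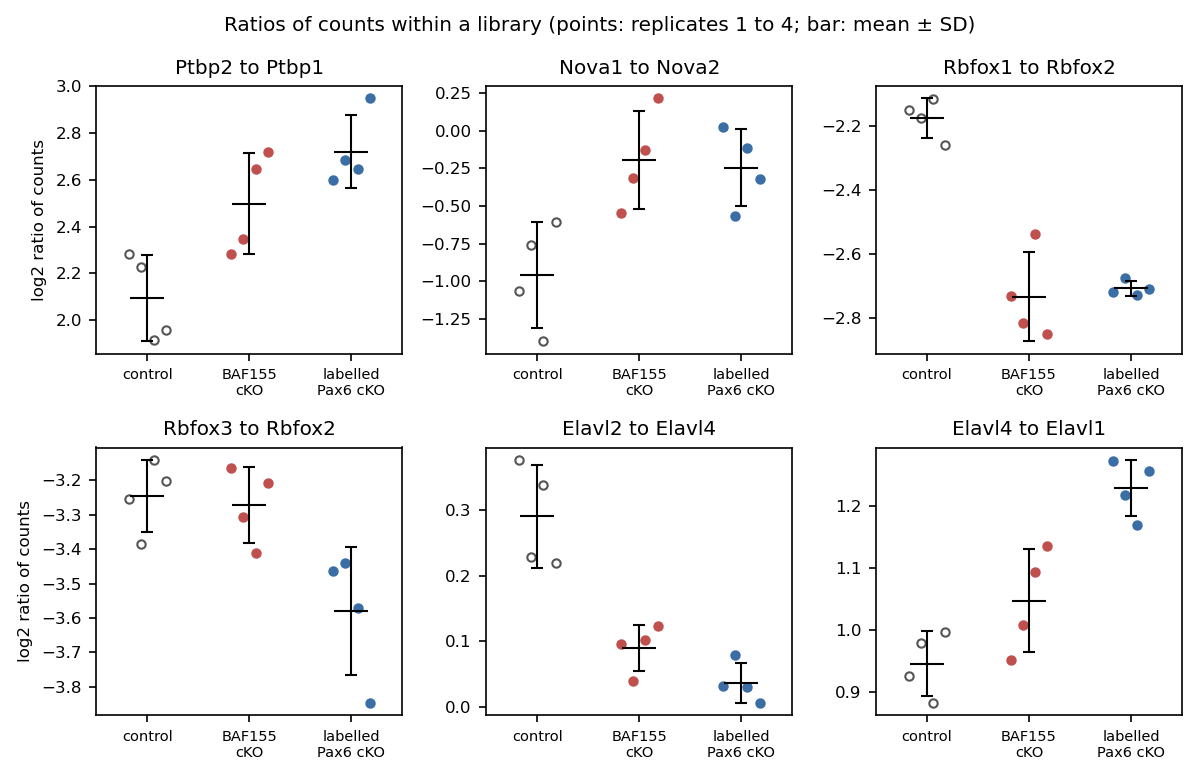
Log2 ratio of the counts of related genes in every library, 1 panel a ratio, points are libraries and lines are group means. In the panels of Rbfox1 to Rbfox2, Nova1 to Nova2, Elavl2 to Elavl4 and Ptbp2 to Ptbp1 all cKO libraries lie on one side of the controls.

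General neuronal messages were followed with a reference list. Over its 16 pan-neuronal genes, the mean log2 CPM differed from control by −0.08 in the BAF155 cKO (exact permutation p = 0.4, 2-sided, n = 4 each) and by 0.07 in libraries labelled Pax6 cKO (p = 0.286), and their summed level was at 11939 to 12501 CPM in control, 10013 to 12663 in the BAF155 cKO and 11212 to 12880 in libraries labelled Pax6 cKO. Of the 16, none passed in the BAF155 cKO, and 2 rose and 2 fell in libraries labelled Pax6 cKO. Over all tested genes, 13.6% were called in the BAF155 cKO and 35.5% in libraries labelled Pax6 cKO. Stmn2 and Stmn3, which act on microtubules, rose (log2 0.42, adjusted p = 0.0206, and 0.55, adjusted p = 0.00589, edgeR), while Syt1, a calcium sensor of synaptic vesicles, and Dcx, a microtubule protein of migrating neurons, fell (−0.38, adjusted p = 0.0185, and −0.42, adjusted p = 0.0268). Against the male controls alone none of these 4 passed. In the BAF155 cKO the most abundant, Dcx and Tubb3, had log2 fold changes of −0.28 (adjusted p = 0.158) and −0.22 (adjusted p = 0.231). Against the female controls alone Dcx passed as lower (−0.46, adjusted p = 0.0393, edgeR), and Tubb3 did not pass.

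Set against this list library by library, Rbfox1 stood 0.73 lower on the log2 scale in the BAF155 cKO and 0.91 lower in libraries labelled Pax6 cKO than in control, with no overlap in either. Rbfox2, Rbfox3, Nova2, Elavl2 and Elavl3 also lay wholly below control in libraries labelled Pax6 cKO, by 0.38, 0.71, 0.62, 0.51 and 0.46. In the BAF155 cKO these 5 overlapped with control, at differences of −0.17, −0.19, −0.21, −0.33 and −0.20. Elavl4, Celf4, Nova1 and Ptbp2 overlapped with control in both. How often other genes separate against this list was not computed, so these separations have no background to be read against. By CPM alone the same genes lay wholly below control in libraries labelled Pax6 cKO, as did 18.3% of all tested genes. Over 30 such tests the smallest adjusted value of the exact permutation test was 0.0857, so none passed. As with the ratios, no gene could pass on its own here, so this is a limit of the test.

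Other genes of the same families and genes listed as other neural splicing regulators were lower wherever they passed the test against control. Over all tested genes, 7.56% were called lower in the BAF155 cKO and 18.9% in libraries labelled Pax6 cKO. Of 8 other family members, 1 was lower in the BAF155 cKO (Ptbp1) and 4 in libraries labelled Pax6 cKO, and none was higher, with median log2 fold changes of −0.04 and −0.18. The 4 were Ptbp1, Celf2 (1051 ± 131 CPM in control and 723 ± 26.1 in libraries labelled Pax6 cKO, log2 −0.54, adjusted p = 0.00275), Elavl1 (log2 −0.47, adjusted p = 0.00787) and Celf1 (log2 −0.28, adjusted p = 0.0246). The list of 19 other neural splicing regulators also holds Rest, a repressor of neuronal genes. Of the 19, 17 passed the filter, 3 were lower in the BAF155 cKO and 9, Rest among them, in libraries labelled Pax6 cKO. None was higher, and the medians were −0.27 and −0.44. Rbm24, an RNA-binding protein best known from muscle splicing, changed most. It was at 30.4 ± 3.39 CPM in control, 21.2 ± 2.06 in the BAF155 cKO and 10.7 ± 0.786 in libraries labelled Pax6 cKO, with log2 fold changes of −0.52 (SE 0.10, adjusted p = 0.00417) and −1.5 (SE 0.10, adjusted p = 1.2e-07). The direct contrast was 0.99 (SE 0.10, adjusted p = 0.000104).

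Raver2, a partner of PTB proteins, was lower in both (log2 −0.70, adjusted p = 0.00332, and −0.79, adjusted p = 0.000667), as was Srrm4, which promotes neuronal microexons (−0.42, adjusted p = 0.0386, and −0.71, adjusted p = 0.001). The BAF155 cKO calls of Raver2 and Rbm24 were lost with lane 1 alone (adjusted p = 0.0663 and 0.0824). That of Srrm4 was lost in 8 of 19 settings, among them without BAF155 cKO replicate 3 or 4 or control replicate 3 or 4, and that of Ptbp1 in 7, among them without any of the same 4 libraries or BAF155 cKO replicate 1. Rest, which represses neuronal genes outside neurons, was at 25.4 ± 2.54 CPM in control, 24.1 ± 1.12 in the BAF155 cKO and 18.7 ± 0.697 in libraries labelled Pax6 cKO. It fell in the latter (log2 −0.44, SE 0.09, adjusted p = 0.00204) and had a log2 fold change of −0.07 (adjusted p = 0.568) in the BAF155 cKO. The direct contrast of Rest was 0.37 (SE 0.09, adjusted p = 0.029), a call lost in 9 of 18 settings, among them without any 1 library labelled Pax6 cKO and without BAF155 cKO replicate 1 or 2.

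General splicing factors, 30 genes of the hnRNP and SR families and the core machinery, were not shifted as a list. Their median log2 fold changes were 0.01 in the BAF155 cKO, with 1 higher and 0 lower, and 0.00 in libraries labelled Pax6 cKO, with 7 higher and 5 lower. Over all tested genes, 6.04% were called higher and 7.56% lower in the BAF155 cKO. In libraries labelled Pax6 cKO the shares were 16.6% and 18.9%. Srsf6, an SR protein, was the 1 called in the BAF155 cKO (log2 0.38, adjusted p = 0.0491), and this was lost in 13 of 19 settings. In libraries labelled Pax6 cKO the 4 calls with the smallest adjusted p were Tra2a (0.54, adjusted p = 0.00202), Tra2b (0.38, adjusted p = 0.00228), Srsf7 (0.50, adjusted p = 0.00324) and Srsf3 (0.49, adjusted p = 0.004), all higher and all encoding SR or SR-related splicing factors. Of 6 neuronal transcripts known to be held down by PTBP1, none passed in the BAF155 cKO (Kif5a −0.10, adjusted p = 0.465, and Gabbr1 0.06, adjusted p = 0.602). In libraries labelled Pax6 cKO, Sv2a (−0.36, adjusted p = 0.00423) and Dlg4, which encodes PSD-95 (−0.29, adjusted p = 0.0152), were lower. The Dlg4 value was −0.056 (adjusted p = 0.58) after correction for GC content and length, and its call was also lost without control replicate 4 or replicate 4 labelled Pax6 cKO. That correction also ended the calls of Celf1 (−0.14, adjusted p = 0.117), Dcx (−0.31, adjusted p = 0.0616) and Syt1 (−0.25, adjusted p = 0.0828). Without 1 library, Celf1 and Dcx lost their calls for control replicates 3 and 4 and for replicates 1, 2 and 3 labelled Pax6 cKO, Syt1 for control replicate 4, and Stmn2 for control replicates 3 and 4 and for replicates 2 and 4 labelled Pax6 cKO. Against the male controls alone, the calls of Rbm24, Raver2 and Srrm4 held, and those of Ptbp1, Celf1, Celf2, Elavl1, Rest, Tra2a, Tra2b, Srsf3, Srsf7, Sv2a and Dlg4 did not.

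**Figure D5:**
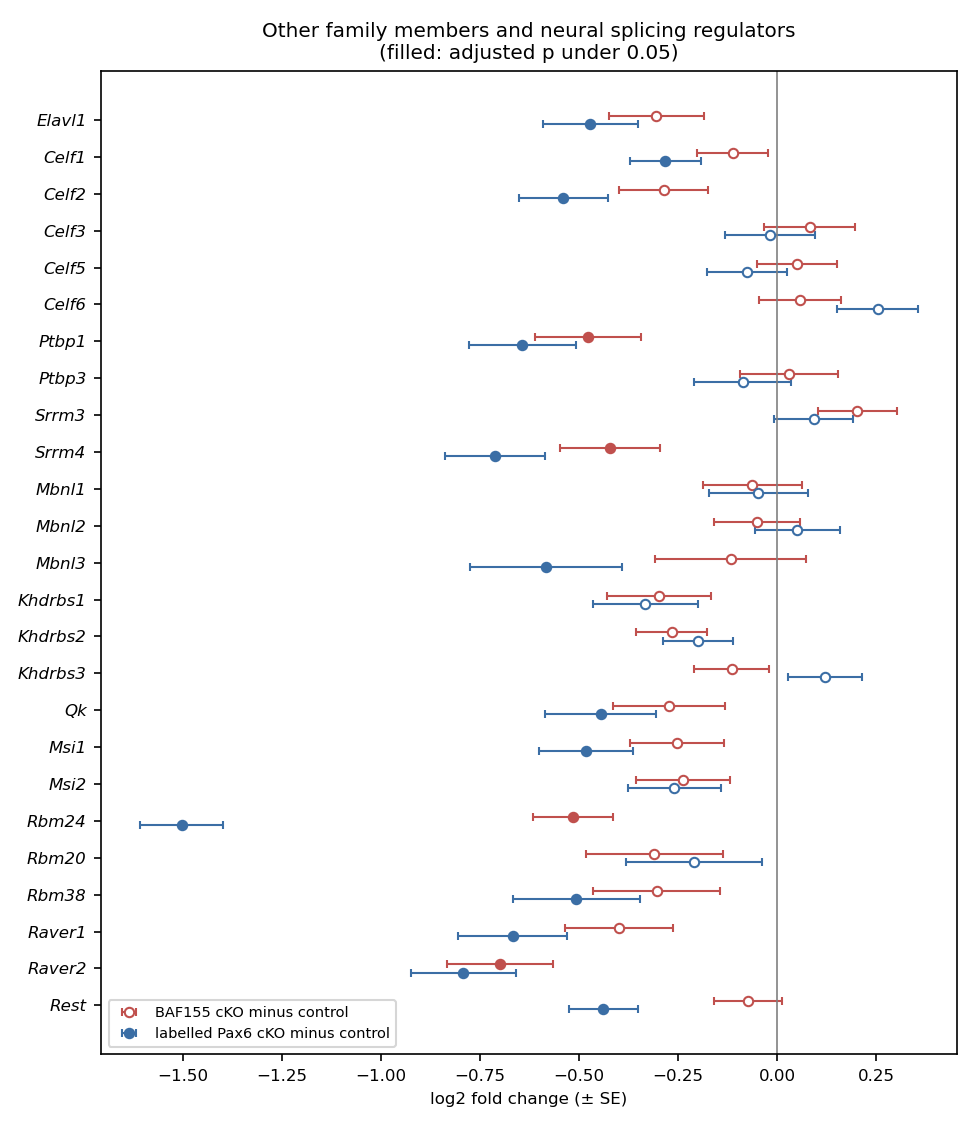
Fitted log2 fold changes with standard errors, for both comparisons with control. Shown are the other family members and the genes listed as other neural splicing regulators that passed the filter on low counts. Filled points passed the adjusted p threshold of 0.05. Rbm24 in libraries labelled Pax6 cKO lies farthest from 0, at −1.5.

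Among 10323 genes of at least 10 mean CPM, those whose log2 CPM followed a called gene of the set most closely over the 12 libraries were picked by Pearson's r, which the libraries' shared genotype and lane also feed. For Rbfox1 they were Nrg3 (r = 0.98, and 0.85 within groups) and Phactr1 (0.98 and 0.90). Nrg3, a neuregulin, was at a mean of 32.7 CPM in control, 21 in the BAF155 cKO and 21 in libraries labelled Pax6 cKO. For Nova2 they were Celf2 (0.995 and 0.985) and Zfp652 (0.99 and 0.96). For Rbfox3 they were Usp30 (0.98 and 0.94) and Ttyh3 (0.98 and 0.97), for Rbfox2 Wars and Erc1, for Elavl2 Snx4 and Ankib1, and for Elavl3 Mybbp1a and Wbp2. Within the set, Rbfox1 and Rbfox2 had r = 0.93 (0.88 within groups), Rbfox2 and Elavl3 had r = 0.96 (0.96 within groups), and Rbfox1 and Nova1 had r = −0.47 (−0.09 within groups).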

How the data were processed

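RNA-seq of embryonic mouse cortex was analysed from raw read counts per gene, whole numbers that the authors deposited as 1 table per library, with no normalization. Total RNA came from an RNeasy kit and libraries from the TruSeq RNA v2 kit, per the labels' protocols. That kit does not mark strand, so overlapping antisense genes cannot be told apart. Per the submitters' processing notes, mm10 was the genome build. Aligner, counting program and annotation were not given in the sources used here. Groups and replicate numbers came from sample titles, and lanes from the names of the deposited tables. GENCODE M21 gave symbols, coordinates and exon lengths for 48349 of 48709 identifiers.

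The filterByExpr function of edgeR 4.0.16 (R 4.3.3) left 16511 genes, and TMM scaled the libraries. All 12 libraries entered a robust quasi-likelihood model with a coefficient for each of the 3 groups. A call needed an adjusted p (Benjamini-Hochberg, all genes tested) below 0.05, and every adjusted p of a gene without another tool named is from that test. The SE is the absolute log2 fold change divided by the square root of F. Ratios and values against the neuronal reference used exact permutation tests. The fit was tested on simulated data. Depth was 15.2 to 32.05 M reads per library, and counts carry no molecular identifiers.

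The genes, lists and tests were chosen with earlier results of these data known. The rule for named genes takes all 10 genes, Smarcc1 and Pax6, up to 4 called genes per list and comparison with control (without calls, the 2 of highest CPM), and the 2 genes most correlated with each called gene of the set. Alternatives were DESeq2 1.42.0, limma-voom (limma 3.58.1), RLE size factors, a filter of 1 CPM in 4 libraries, no filter, the replicate block, a GC content and length correction (loess, span 0.3), a fit of the 8 libraries compared, each BAF155 cKO lane alone, and leaving out each library. Controls of the same sex alone were added after seeing the data.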

Additional observations from a re-analysis of the deposited data

Results flagged for a closer look

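Ptbp2 in control replicate 1, at 425 CPM, lay far below the other 3 controls (515 to 526 CPM). The log2 ratio of Elavl2 to Elavl1 in the same library was 1.30 and lay far above those of the other 3 controls. These were 2 of 60 groups of 4 libraries examined for such a gap, and chance gives about 1 in 20.

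The change against control differed between the BAF155 cKO and the libraries labelled Pax6 cKO, by the direct contrast of edgeR's quasi-likelihood test, in 3 of the named genes. That contrast called 4.31% of all tested genes, and many named genes were picked by their calls against control. For Smarcc1 the difference of the log2 fold changes was −0.55 (adjusted p = 0.0286), a call lost in 8 of 18 settings (adjusted p 0.0536 to 0.175), namely without any 1 library labelled Pax6 cKO, without BAF155 cKO replicate 1 or 4, and with either BAF155 cKO lane alone. For Rbm24 it was 0.99 (adjusted p = 0.000104), held in all 18 settings. For Rest it was 0.37 (adjusted p = 0.029), lost in 9 of 18 (adjusted p 0.054 to 0.236). All BAF155 cKO libraries were female and all libraries labelled Pax6 cKO male, and what part sex has in these differences cannot be told apart from genotype.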

How the results depend on the processing

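Of the 10 genes, Rbfox1 passed under every alternative in both comparisons with control, and Rbfox3 under every alternative in libraries labelled Pax6 cKO. In the BAF155 cKO, 2 of the 10 and 2246 genes in all were called, against 1 and 1035 in a fit of the 8 libraries compared, 1 and 682 with BAF155 cKO lane 1 alone, 7 and 4294 with the female controls alone, and 4 of the 10 with DESeq2. Leaving out 1 library gave 1 to 4 of the 10 and 1001 to 4073 genes; it was 1001 without BAF155 cKO replicate 4, 1164 without control replicate 3, 1287 without control replicate 4, 1324 without BAF155 cKO replicate 1 and 4073 without BAF155 cKO replicate 2. In the libraries labelled Pax6 cKO, 6 of the 10 and 5866 genes were called, against 2 and 1375 with the male controls alone, and 4 to 7 and 3825 to 6601 without 1 library, the lowest without control replicate 3. In the direct contrast, 0 of the 10 and 711 genes were called, against 1 and 1339 with DESeq2, 1 of the 10 with the GC content and length correction and with the 8 libraries compared, 470 genes with BAF155 cKO lane 1 and 209 with lane 3, and 0 to 1 and 307 to 786 without 1 library, all below 470 except without BAF155 cKO replicate 4. The cause was not tested. Some of these fits held fewer libraries, with counts both above and below those of the fit of all libraries.

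Estimates near 0 changed sign. Against control in the BAF155 cKO these were Celf4 with the female controls (−0.023) and Kif5a with the GC content and length correction (0.00304). For Ptbp2 in libraries labelled Pax6 cKO the log2 fold change was 0.00013 with limma-voom, 0.0101 with the filter of 1 CPM, 0.00242 with the replicate block, 0.0602 with the male controls, and −0.0937 to 0.0218 without 1 library. In the direct contrast these were Rbfox2 (−0.0251) and Elavl4 (0.0426) with the GC content and length correction, Elavl4 (0.0464) with lane 1 and Celf4 (0.0406) with lane 3. Without 1 library, the direct contrast ran from −0.0647 to 0.13 for Rbfox1, −0.0392 to 0.0838 for Elavl2 and −0.109 to 0.0435 for Elavl4. The log2 ratio differences ran from −0.0915 to 0.0128 for Rbfox1 to Rbfox2, −0.0866 to 0.169 for Nova1 to Nova2 and −0.0918 to 0.00668 for Elavl3 to Elavl1 in the direct contrast, and from −0.074 to 0.0189 for Rbfox3 to Rbfox2 and −0.0182 to 0.0789 for Elavl3 to Elavl1 against control in the BAF155 cKO. With Tubb3 alone as the neuronal reference, Elavl4 was at 0.0285 in the BAF155 cKO and Ptbp2 at 0.112 in libraries labelled Pax6 cKO.

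Replicate numbers did not pair the libraries. The correlation of same-numbered libraries ran from −0.254 to 0.284 between BAF155 cKO and control, −0.126 to 0.147 between the libraries labelled Pax6 cKO and control, and −0.228 to 0.477 in the direct contrast, and its own number was best for replicate 1 alone in the comparisons with control and for replicates 1 and 2 in the direct contrast. With the replicate block, 2245, 5689 and 497 genes were called, and 2, 6 and 0 of the 10. Among the other named genes, the calls of Srrm4 in the BAF155 cKO (adjusted p = 0.0633) and of Rest in the direct contrast (adjusted p = 0.054) were lost with it. All 10 genes had group means of at least 49.2 CPM.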
